A study of Mus musculus with 27 samples.

Results

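Acute phase proteins are plasma or secreted proteins whose production changes after tissue injury, and metallothioneins are small cysteine-rich proteins that bind zinc and copper inside the cell. In the liver, hepatocytes are the best known source of the circulating acute phase proteins, with interleukin 6 type cytokines acting through STAT3 and interleukin 1 type cytokines acting through NF-kB and C/EBP factors as the classical inducers. Metallothionein genes are switched on by zinc and other metals through the metal-sensing factor MTF1, and also by glucocorticoids and oxidative stress. Here 10 genes of both kinds were followed in hepatic stellate cells (HSCs), the vitamin A storing pericytes of the liver, out of 53379 genes in the count table. They were Lcn2 and Hp (siderophore and haemoglobin binding), Saa1, Saa2 and Saa3 (serum amyloid A), Orm1 (orosomucoid), Serpina3n and Serpina3f (serine protease inhibitors) and Mt1 and Mt2 (metallothioneins). Each was found by its gene symbol, and all 10 were among the 18758 genes that passed the filter on low counts.

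HSCs from male Balb/c mice were sequenced in bulk, in 27 libraries of 7 groups. The livers were perfused and the HSCs were sorted by the ultraviolet fluorescence of their vitamin A stores, and RNA was taken without culture. The 4 healthy mice, aged 10 to 12 weeks, were not injected, so no group received the mineral oil vehicle alone. Carbon tetrachloride (CCl4), a hepatotoxin, was given into the peritoneum in mineral oil at 0.5 µL per gram body weight in all 6 injured groups. In the acute groups, mice aged 10 to 12 weeks had 1 injection and were sampled after 24 h (3 libraries), 72 h (4) and 7 d (4). In the chronic groups, mice aged 8 to 10 weeks had 8 injections over 4 weeks and were sampled 24 h, 72 h and 14 d after the last (4 libraries each). A sort on vitamin A fluorescence selects cells that still hold their droplets.

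Library totals ran from 6314801 to 13052838 counts. The 8 shallower libraries (at most 7580709 counts, against at least 10792560 in the others) were chronic 24 h replicates 1 and 2, chronic 72 h replicates 1 and 2 and all 4 chronic 14 d libraries, so depth and the chronic 14 d group cannot be told apart. All 14 stellate cell markers looked up were detected in every group, but their summed level differed between groups. It was 31351 to 50433 CPM (counts scaled to a common library total) in healthy libraries. The sum was 23909 to 36264 CPM at acute 24 h, 16659 to 19792 CPM at chronic 24 h and 25176 to 32928 CPM at chronic 14 d. Hepatocyte genes were present too, and they differed between groups. The sum of 19 hepatocyte genes was 643 to 4679.7 CPM in healthy libraries, 33.3 to 307 CPM at acute 24 h and 2133 to 10623 CPM at chronic 14 d. In bulk samples, fewer cells of a type and less RNA per cell cannot be told apart. Levels below are CPM after TMM scaling, listed in replicate order, and differences are log2 fold changes ± SE from edgeR's quasi-likelihood test with Benjamini-Hochberg adjustment over all genes tested (called the edgeR adjusted p). A gene was called higher or lower at an adjusted p under 0.05 and a change above 2-fold. Of the 14 stellate cell markers, 8 were called lower and 1 higher at chronic 24 h than in healthy HSCs. At the other injured times 2 to 7 of the 14 were called lower and 0 higher.

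The response of the 10 genes was mostly upward but differed in its members from one time to the next. At acute 24 h, 5 of 10 were called higher and 1 lower than in healthy HSCs, where 9.41% of all genes tested were called higher and 12.5% lower. The 5 were Lcn2, Saa3, Serpina3n, Mt1 and Mt2, and the gene called lower was Hp. By acute 72 h, 2 were called higher, Lcn2 and Serpina3n, against 8.23% of all genes called higher and 4.33% lower. At acute 7 d, 4 were called higher, Lcn2, Saa1, Saa3 and Serpina3n, against 9.23% of all genes called higher and 5.64% lower.

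In chronic injury, 4 of 10 were called higher at 24 h, Lcn2, Saa3, Serpina3n and Mt2, against 11.2% of all genes called higher and 8.11% lower. At chronic 72 h, 6 were called higher, Lcn2, Saa1, Saa2, Saa3, Serpina3n and Serpina3f, against 7.88% called higher and 4.2% lower. At chronic 14 d, 4 were called higher, Lcn2, Saa1, Saa3 and Serpina3f, against 4.55% called higher and 1.17% lower. No member was called lower at these 3 times by edgeR or DESeq2, nor at an unadjusted p under 0.05. The median log2 fold change of the 10 was 2.41 at acute 24 h and 2.40 at chronic 72 h, and the median of all genes tested was −0.12 and 0.00. Lcn2 alone of the 10 was called higher in all 6 comparisons with healthy HSCs, which share the 4 healthy libraries.

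**Figure D1:**
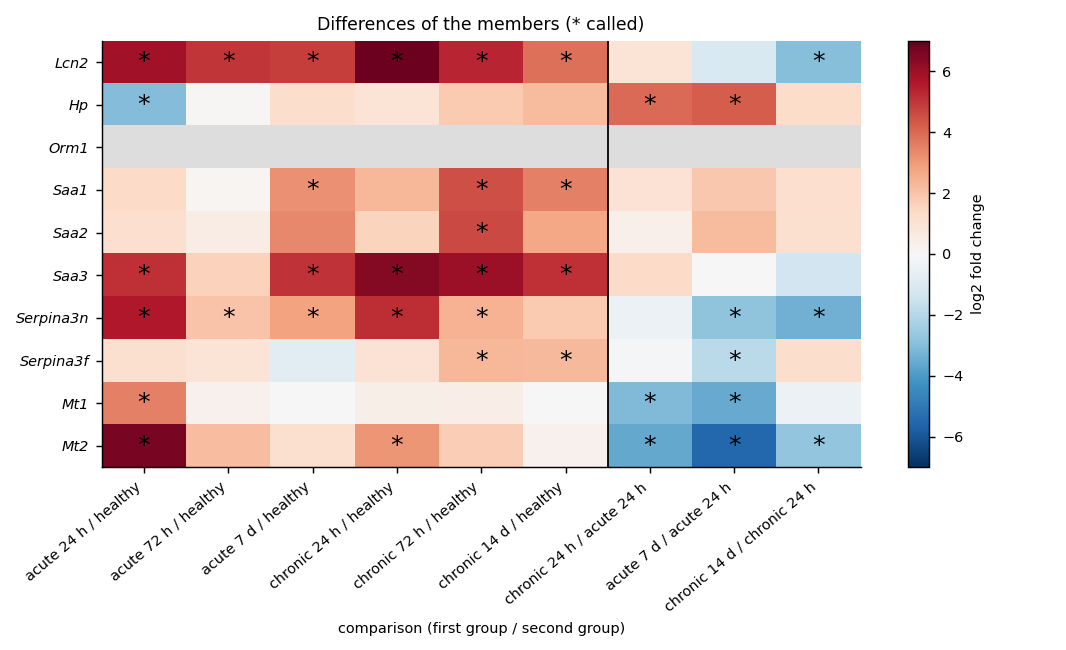
Log2 fold change (colour, edgeR) of the 10 genes (rows) in 9 comparisons (columns, first group over second), with the 6 against healthy HSCs left of the line; a star marks an adjusted p under 0.05 and a change above 2-fold, and Orm1 is grey because no fold is given. Lcn2 is starred in all 6 columns against healthy HSCs, Mt1 in 1 of them, and Hp is the only gene starred in blue there.

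**Figure D2:**
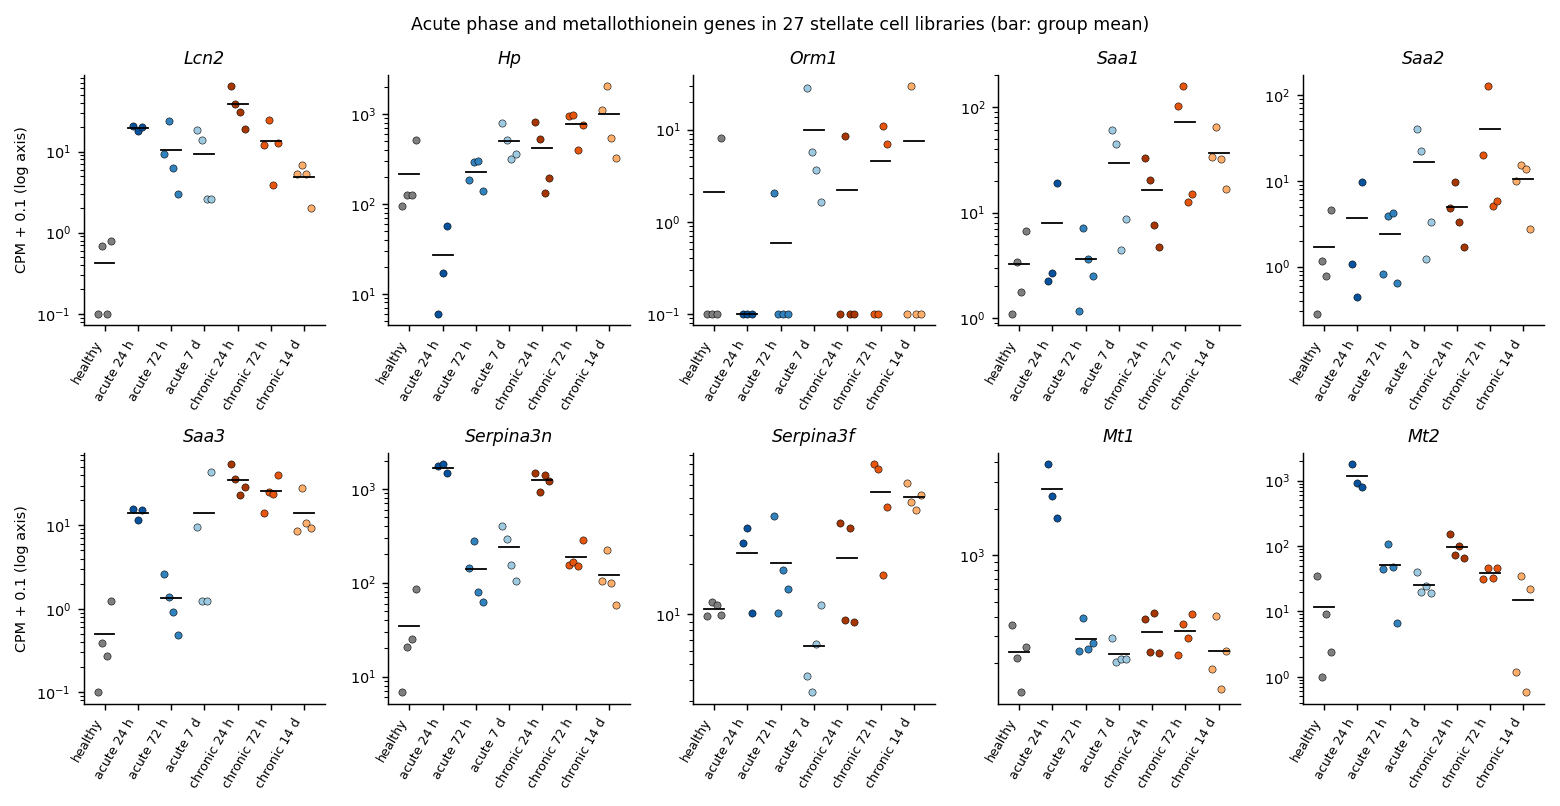
Level of each of the 10 genes in every library (y axis, CPM + 0.1 on a log axis, scaled separately for each gene), by group; each point is 1 library and each bar a group mean. Serpina3n is at 923 CPM or more in the 7 libraries taken 24 h after an injection, and Mt1 is at 1732 CPM or more only in the 3 acute 24 h libraries.

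Mt1 and Mt2 lie side by side within 7.7 kb of chromosome 8, Mt2 at chr8:94172664-94173568 and Mt1 at chr8:94179082-94180327, both on the plus strand (GRCm38). Both have an annotated coding sequence of 61 codons beside others of 37 and 132 codons in Mt1 and 76 in Mt2, and their most alike coding sequences are 79.2% identical. Mt1 was at 351, 214, 129 and 253 CPM in the healthy libraries and at 3885, 2436 and 1732 CPM at acute 24 h. The groups did not overlap, and the difference was 3.50 ± 0.37, an 11.3-fold higher level (edgeR adjusted p = 2.87e-07). Mt2 was at 34.4, 0.878, 9.02 and 2.25 CPM in the healthy libraries and at 1779, 923 and 805 CPM at acute 24 h. These groups were apart as well, with a difference of 6.65 ± 1.17 (edgeR adjusted p = 0.000136). Per kilobase of transcript, the mean level at acute 24 h was 4241 CPM for Mt1 and 2600.5 CPM for Mt2, against 374 and 25.9 CPM in healthy HSCs.

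Mt1 was called at acute 24 h and in no other comparison with healthy HSCs. At acute 72 h Mt1 was at 238, 393, 248 and 269.6 CPM, and at acute 7 d it was at 289.7, 203, 213 and 212 CPM. At chronic 24 h, Mt1 was at 388, 235, 421 and 232 CPM. Every one of these libraries lay far below the acute 24 h libraries and within or just above the healthy range. The difference from healthy was 0.28 at acute 72 h (edgeR adjusted p = 0.597), −0.05 at acute 7 d (adjusted p = 0.938) and 0.43 at chronic 24 h (adjusted p = 0.342).

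Compared directly, Mt1 fell by 3.55 ± 0.37 on the log2 scale between acute 24 h and acute 7 d (edgeR adjusted p = 1.79e-07), and it was lower at chronic 24 h than at acute 24 h by −3.07 ± 0.36 (adjusted p = 2.44e-06). In the first of these comparisons 1 member was called higher and 4 lower (17.8% and 9.24% of all genes), and in the second 1 was called higher and 2 lower (10.9% and 3.05%). The same interval after an injection thus gave an 8.42-fold lower Mt1 level after 8 injections than after 1. The chronic mice also differed in age, and age and the number of injections cannot be told apart here. At chronic 72 h Mt1 was at 224, 356, 289.6 and 416 CPM, and at chronic 14 d it was at 182, 401, 135 and 239 CPM. Both sets overlapped the healthy libraries.

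Mt2 kept a smaller rise at chronic 24 h, where the 4 libraries were at 153, 71.7, 99.5 and 65.9 CPM, all above the highest healthy library. The difference was 3.06 ± 0.99, 8.37-fold (edgeR adjusted p = 0.0208), and it was no longer called when healthy replicate 2, 3 or 4 was left out (adjusted p = 0.0549, 0.0548 and 0.0557) or without the filter on low counts (0.0589). Its adjusted p ran from 0.00331 to 0.0589 over 20 alternatives. Mt2 was lower at chronic 24 h than at acute 24 h by −3.58 ± 1.03 (adjusted p = 0.0149), a call that was lost without acute 24 h replicate 1 (−3.14, adjusted p = 0.0563, within a range of 0.000257 to 0.0563 over 19 alternatives).

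Mt2 at acute 72 h stood at 44.2, 107, 46.8 and 6.58 CPM, at acute 7 d at 39.7, 19.4, 23.9 and 18.7 CPM, and at chronic 72 h at 31.6, 46.0, 32.4 and 46.8 CPM. These libraries overlapped the healthy range, and none of the 3 differences passed (2.13, 1.12 and 1.75, with edgeR adjusted p = 0.115, 0.423 and 0.205). Chronic 14 d split into a pair of libraries at 35.3 and 21.6 CPM (replicates 2 and 4) and a pair near 0, at 1.08 and 0.481 CPM (replicates 1 and 3). From acute 24 h to acute 7 d Mt2 fell by 5.52 on the log2 scale (SE 1.12, adjusted p = 0.000435). From chronic 24 h to chronic 14 d it fell by 2.74 (SE 0.98, adjusted p = 0.0457), and here the call was lost in 14 of 20 alternatives, among them leaving out any 1 of 7 of the 8 libraries (adjusted p 0.0149 to 0.168 over the 20). In that last comparison 3 members were called lower, against 6.11% of all genes. Called higher were 0, with 6.65% of all genes, 1 member at an unadjusted edgeR p under 0.05 and 1 by DESeq2, both Serpina3f.

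The ratio of both genes was then followed within libraries, where depth and scaling cancel. Mt1 counts per Mt2 count were 10.2, 244, 14.3 and 112.5 in the healthy libraries, and 2.18, 2.64 and 2.15 at acute 24 h. At chronic 24 h the ratio was 2.53, 3.28, 4.23 and 3.51, and at chronic 72 h it was 7.08, 7.73, 8.94 and 8.90. With Mt2 counted alone, all of these injured libraries lay below the lowest healthy library. The mean log2 ratio was lower than in healthy HSCs by −4.27 at acute 24 h, −3.75 at chronic 24 h and −2.46 at chronic 72 h (two-sided exact permutation test, p = 0.0571, 0.0286 and 0.0286, adjusted over 6 comparisons 0.114, 0.0857 and 0.0857). The smallest p this exact test can give is 0.0286, and none of the 6 passed after adjustment.

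The remaining ratios were spread widely where Mt2 was rare. At acute 72 h they were 5.39, 3.67, 5.29 and 41.0 and at acute 7 d 7.30, 10.5, 8.91 and 11.3, with differences of −2.47 and −2.26 (exact permutation p = 0.171 and 0.0857). The chronic 14 d libraries gave 168, 11.4, 280 and 11.1, with a difference of 0.14 (exact permutation p = 0.857). Behind the highest ratios stood only 9 and 26 Mt2 counts in healthy replicates 2 and 4, and 8 and 4 in chronic 14 d replicates 1 and 3, so their Mt2 values are imprecise.

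**Figure D3:**
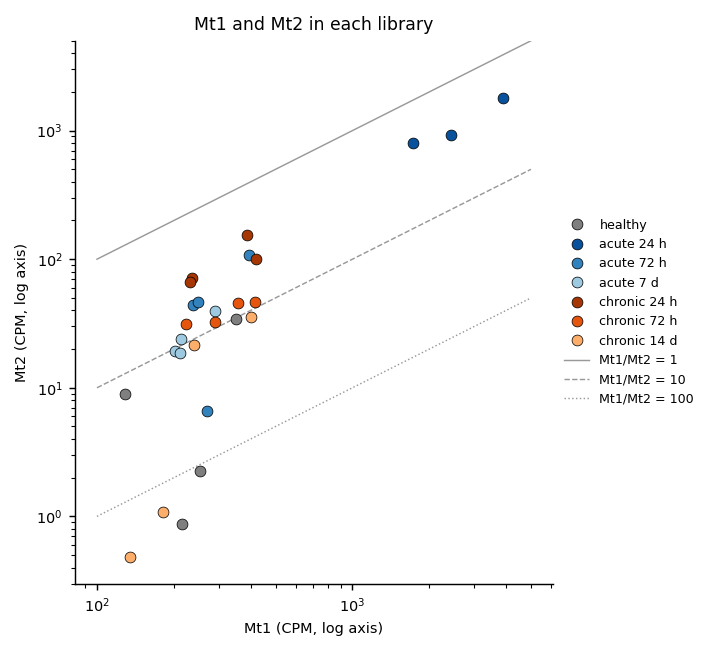
Mt1 level (x axis, CPM) against Mt2 level (y axis, CPM) in the 27 libraries, both axes on a log scale, coloured by group; the lines mark Mt1 to Mt2 ratios of 1, 10 and 100. The 3 acute 24 h libraries lie apart at the upper right, and the 4 libraries nearest the bottom, from healthy and chronic 14 d HSCs, hold at most 26 Mt2 counts each.

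Mt2 overlaps Gm45774, a non-coding gene on the opposite strand, which holds 30.2% of the 75-base windows of its transcripts. Whether reads were counted by strand is not given in the sources used here, so reads of this pair may have been split between them. Gm45774 had 74 to 308 counts in healthy libraries, 207 to 337 at acute 24 h and 25 to 170 at chronic 24 h, and exceeded Mt2 in 5 libraries. Among the 5 were healthy replicates 2 and 4 and chronic 14 d replicates 1 and 3, those with the highest Mt1 to Mt2 ratios. With both counted together, an alternative chosen after seeing the data, Mt2 stayed higher at acute 24 h by 5.40 and at chronic 24 h by 1.90 (edgeR adjusted p = 2.19e-06 and 0.0128), smaller than when counted alone. The ratio was not tested on summed counts. Healthy replicate 1 held 3873 Mt1 and 688 summed counts, and chronic 72 h replicate 4 held 5311 and 681. On summed counts the chronic 72 h ratios were thus not all below the lowest healthy one, while those at acute and chronic 24 h were. Among relatives, Mt3 was counted 71, 22 and 21 times at acute 24 h and 0 times in each of the other 24 libraries, and Mt4 was at 0 in all 27.

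The 250 bases before the RefSeq start of both genes (GRCm38.p6, plus strand) are printed here because metallothionein promoters carry metal responsive elements, the sites MTF1 binds. Capitals mark matches to the element's core, TGCACNC or TGCGCNC on either strand. The Mt1 stretch is chr8:94178839-94179088 and the Mt2 stretch chr8:94172368-94172617.
Mt1: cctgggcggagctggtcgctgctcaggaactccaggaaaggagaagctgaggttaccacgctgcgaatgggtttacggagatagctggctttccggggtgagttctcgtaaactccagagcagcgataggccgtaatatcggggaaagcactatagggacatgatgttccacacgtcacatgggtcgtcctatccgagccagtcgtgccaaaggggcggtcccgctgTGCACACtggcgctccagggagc
Mt2: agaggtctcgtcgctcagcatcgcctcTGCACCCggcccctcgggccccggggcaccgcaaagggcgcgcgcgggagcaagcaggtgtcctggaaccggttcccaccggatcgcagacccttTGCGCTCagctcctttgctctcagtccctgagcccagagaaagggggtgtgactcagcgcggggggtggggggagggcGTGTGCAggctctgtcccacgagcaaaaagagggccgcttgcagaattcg
In windows of 300 bases, from 250 before the start to 50 after, Mt1 held 3 matches and Mt2 held 4. Of 32851 RefSeq promoter windows of that length, 25.7% held at least 1 and 1.97% held 3 or more. Counted from the start as 0, the Mt1 matches began at −23, 2 and 20, and those of Mt2 at −223, −128, −50 and 4. The aligned stretches of Mt1 and Mt2 were 48.1% identical. The annotated coding transcripts start up to 152 bases from the RefSeq start for Mt1 and up to 242 for Mt2, so the positions depend on the start used.

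Serpina3n, a secreted inhibitor of serine proteases and the mouse relative of human antichymotrypsin, was the most abundant of the 8 acute phase members 24 h after injury per kilobase of transcript, with means of 819 CPM per kilobase at acute 24 h and 607 at chronic 24 h. It lies at chr12:104406729-104414329 on the plus strand. The healthy libraries were at 6.71, 20.8, 24.9 and 85.2 CPM, and the acute 24 h libraries at 1771, 1831 and 1467 CPM. At chronic 24 h Serpina3n was at 1461, 923, 1421 and 1203 CPM. Both 24 h groups lay far above every other library. The differences from healthy HSCs were 5.62 ± 0.70 at acute 24 h, 49.1-fold (edgeR adjusted p = 2.35e-06), and 5.19 ± 0.67 at chronic 24 h, 36.4-fold (adjusted p = 3.32e-06). The direct difference between chronic and acute 24 h was −0.43, with a 95% interval from −1.61 to 0.75 (adjusted p = 0.656).

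At later times the Serpina3n libraries were all below those at 24 h. In the acute 72 h libraries it was at 143, 275, 79.4 and 61.6 CPM, and at acute 7 d at 403, 294, 156 and 105 CPM. At chronic 72 h it was at 153, 164, 152 and 282 CPM and at chronic 14 d at 105, 222, 98.5 and 57.1 CPM. Acute 72 h and chronic 14 d overlapped the highest healthy library, and the others did not. The difference from healthy was 2.80 ± 0.60 at acute 7 d (edgeR adjusted p = 0.00163) and 2.45 ± 0.60 at chronic 72 h (adjusted p = 0.00501), and at chronic 14 d it was 1.81, which did not pass (adjusted p = 0.0549).

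The rise of Serpina3n at acute 72 h, 2.02 ± 0.59 (edgeR adjusted p = 0.0153), depended on single libraries. It was not called without healthy replicate 2 or 3 (adjusted p = 0.0527 and 0.0503), without acute 72 h replicate 2 (1.46, adjusted p = 0.0826) or when only these 2 groups were fitted (0.108), within a range of 0.000743 to 0.108 over 19 alternatives. The fall from acute 24 h to acute 7 d was −2.82 ± 0.62 (adjusted p = 0.000976) and from chronic 24 h to chronic 14 d −3.37 ± 0.62 (adjusted p = 0.000369). Both calls held in every alternative run.

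Serpina3f, another serpin of the same cluster (chr12:104214544-104221129, plus strand, within 199.8 kb of Serpina3n), had a different course. Its healthy libraries were close together at 9.61, 11.7, 11.2 and 9.71 CPM. Acute 24 h gave 26.6, 32.7 and 10.0 CPM and chronic 24 h gave 35.4, 9.06, 32.8 and 8.88 CPM. Neither 24 h group was clear of the healthy range, and neither difference passed (1.13 and 1.03, edgeR adjusted p = 0.121 and 0.143). Serpina3f was higher in the later chronic groups, at 79.6, 74.9, 17.0 and 43.9 CPM at 72 h and 61.3, 46.8, 42.2 and 52.2 CPM at 14 d, all above the healthy libraries. The differences were 2.35 ± 0.54, 5.09-fold (adjusted p = 0.00306), and 2.26 ± 0.54, 4.79-fold (adjusted p = 0.00902). The depth of the libraries moved with this result, since the chronic 72 h replicates 1 and 2 with the highest values are of the shallower class. In the deeper libraries alone, chosen after seeing the data, the chronic 72 h difference was 1.57 (adjusted p = 0.0985, within 6.76e-05 to 0.0985 over 20 alternatives), and with depth class as a term the chronic 14 d difference was 1.53 (adjusted p = 0.233, within 0.000246 to 0.233 over 19).

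After 1 injection Serpina3f was at 38.8, 10.0, 18.3 and 14.0 CPM at 72 h and at 4.12, 3.28, 6.52 and 11.3 CPM at 7 d. The first group overlapped the healthy range and 3 of the 4 libraries of the second lay below it, with differences of 0.94 and −0.74 (edgeR adjusted p = 0.208 and 0.336). Between acute 24 h and acute 7 d Serpina3f fell by 1.87 on the log2 scale (SE 0.56, adjusted p = 0.0102), although the groups overlapped. That call was lost without acute 24 h replicate 2 (−1.53, adjusted p = 0.0603, within 0.00339 to 0.0603 over 18 alternatives).

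Both serpin stretches before the start are printed because the pair were called at different times while their most alike coding sequences are 78.0% identical. Capitals mark matches, on either strand, to C/EBP type (TTGCNNAA), STAT type (TTCNNNGAA) and glucocorticoid receptor type (ACANNNTGT) motifs. The Serpina3n stretch is chr12:104406458-104406707 and the Serpina3f stretch chr12:104214294-104214543, both on the plus strand (RefSeq, GRCm38.p6).
Serpina3n: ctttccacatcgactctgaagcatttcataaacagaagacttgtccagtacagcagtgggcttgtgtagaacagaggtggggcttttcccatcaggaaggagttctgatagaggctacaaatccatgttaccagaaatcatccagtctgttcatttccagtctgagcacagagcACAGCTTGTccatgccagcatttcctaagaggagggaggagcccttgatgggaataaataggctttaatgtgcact
Serpina3f: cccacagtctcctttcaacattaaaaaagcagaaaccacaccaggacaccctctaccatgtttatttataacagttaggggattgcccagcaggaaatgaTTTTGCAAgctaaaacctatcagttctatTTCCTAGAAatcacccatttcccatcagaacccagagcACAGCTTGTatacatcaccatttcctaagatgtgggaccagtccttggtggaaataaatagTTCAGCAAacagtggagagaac
The aligned stretches were 62.6% identical. Both held 1 glucocorticoid receptor type match, beginning at −76 in Serpina3n and −83 in Serpina3f. RefSeq lists a further start for Serpina3f, from which the same match begins at −172, so the likeness in position depends on the start used. Only Serpina3f of this pair held C/EBP type matches (2) and a STAT type match (1). Of all promoter windows searched, 10.8% held a C/EBP type, 8.30% a STAT type and 6.85% a glucocorticoid receptor type match. Of the 8 members with a promoter entry, none held the NF-kB consensus that 8.46% of windows hold. C/EBP type matches were also found once each in Lcn2, Saa1, Saa2, Saa3 and Mt2, and glucocorticoid receptor type matches once each in Lcn2 and Mt1. No match of one motif overlapped another. Hp and Orm1 were not searched.

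**Figure D4:**
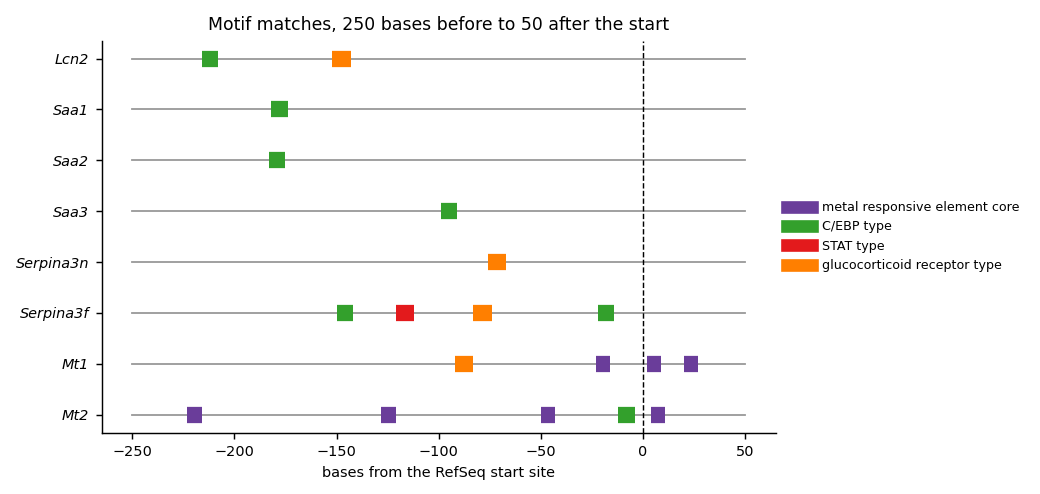
Positions of the motif matches (x axis, bases from the RefSeq start) in the promoter windows of the 8 members with an entry, 1 line per gene, coloured by motif. Metal responsive element cores fall only in Mt1 and Mt2, 3 and 4 of them, and Serpina3f holds 4 matches of other motifs.

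Lcn2 encodes lipocalin 2, which binds iron-carrying bacterial siderophores, and lies at chr2:32384633-32388252 on the minus strand. It was almost absent from healthy HSCs, at 0, 0.585, 0 and 0.693 CPM. At acute 24 h it was at 20.6, 17.8 and 20.2 CPM, and at chronic 24 h at 64.2, 38.3, 30.3 and 18.9 CPM. Every one of the 23 injured libraries exceeded every healthy one. The differences were 5.90 ± 0.96 at acute 24 h, 59.7-fold (edgeR adjusted p = 5.54e-05), and 6.85 ± 0.97 at chronic 24 h, 115.7-fold (adjusted p = 9.55e-06). Because the healthy level rests on few counts, these fold changes are imprecise.

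Lcn2 remained above the healthy level at the later times. The libraries were at 9.12, 23.6, 6.18 and 2.87 CPM at acute 72 h and 18.3, 13.7, 2.50 and 2.53 CPM at acute 7 d. Chronic 72 h gave 12.0, 24.6, 3.74 and 12.7 CPM, and chronic 14 d gave 5.13, 6.71, 5.17 and 1.91 CPM. Replicates of a group varied by several fold, yet none reached down to the healthy libraries. The differences were 4.99, 4.82 and 5.33 (SE 0.93, 0.93 and 0.94, edgeR adjusted p = 0.000445, 0.000574 and 0.00027) at acute 72 h, acute 7 d and chronic 72 h. At chronic 14 d the difference was 3.86 ± 0.93 (adjusted p = 0.0105), which was not called with depth class as a term (2.76, adjusted p = 0.167, within 4.04e-05 to 0.167 over 19 alternatives). From chronic 24 h to chronic 14 d Lcn2 fell by 2.99 on the log2 scale (SE 0.76, adjusted p = 0.00601), a 7.96-fold change.

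Lcn2 is also a granule protein of neutrophils, so neutrophil genes were looked up beside it. The sum of 12 neutrophil genes was 0.390 to 2.18 CPM in healthy libraries, 4.65 to 22.1 CPM at acute 24 h and 19.9 to 59.2 CPM at chronic 24 h. Of the 8 that could be tested, 6 were called higher at acute 24 h, against 9.41% of all genes. In healthy HSCs 9 of the 12 had no count, so most of those tested passed the filter on low counts through injured groups only. Their calls are no independent result. Ltf, Elane and Ly6g were at 0 at acute 24 h, and Ltf and Camp at chronic 24 h. The sum was highest at chronic 14 d, at 52.2 to 72.1 CPM, where Lcn2 was lowest among the injured groups. The part of neutrophils in the Lcn2 level was not tested further.

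The serum amyloid A genes encode lipoprotein-bound proteins of the acute phase and lie within 42.3 kb of chromosome 7. Saa1 (chr7:46740497-46742980, minus strand) and Saa2 (chr7:46751790-46754313, plus strand) are the forms that hepatocytes secrete, and Saa3 (chr7:46711998-46715700, minus strand) is the form known from macrophages, fat and other tissues outside the hepatocyte. Saa3 was at 0, 0.293, 0.169 and 1.13 CPM in healthy HSCs, at 15.5, 11.4 and 15.2 CPM at acute 24 h and at 54.0, 36.0, 22.7 and 28.7 CPM at chronic 24 h. Both injured groups were clear of the healthy libraries. The differences were 5.09 ± 1.05, 34.0-fold (edgeR adjusted p = 0.000671), and 6.42 ± 1.06, 85.6-fold (adjusted p = 7.01e-05).

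Saa3 was not called at acute 72 h and was called at acute 7 d and at all 3 chronic times. At acute 72 h it was at 2.48, 1.30, 0.813 and 0.387 CPM, overlapping the healthy libraries (1.59, edgeR adjusted p = 0.315). At acute 7 d it was at 9.38, 1.15, 1.13 and 43.8 CPM, a spread of which replicate 4 held most. The acute 7 d difference was 5.08 ± 1.03 (adjusted p = 0.000958), called in every alternative run, with the log2 fold change between 3.24 and 6.41. Chronic 72 h gave 14.0, 24.9, 23.3 and 40.5 CPM and chronic 14 d gave 8.37, 27.8, 10.7 and 9.26 CPM, all above the healthy libraries. The differences were 5.96 ± 1.05 (adjusted p = 0.000285) and 5.09 ± 1.03 (adjusted p = 0.00299). From chronic 24 h to 14 d the difference was −1.33 (adjusted p = 0.249).

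Macrophage genes moved with Saa3 in part. The sum of 13 macrophage and monocyte genes was 155 to 626 CPM in healthy libraries and 149 to 201 CPM at acute 24 h, where Saa3 was already higher. It was 833 to 3127 CPM at acute 7 d and 338 to 1665 CPM at chronic 24 h. There 11 and 9 of the 13 genes were called higher, against 9.23% and 11.2% of all genes. Its part in the later Saa3 levels was not tested.

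Saa1 and Saa2 were not called at either 24 h time. Saa1 was at 0.997, 3.32, 1.69 and 6.59 CPM in healthy HSCs and at 2.14, 2.60 and 18.8 CPM at acute 24 h, overlapping groups with a difference of 1.31 (edgeR adjusted p = 0.348). At chronic 24 h it was at 32.5, 20.5, 7.45 and 4.64 CPM (2.35, adjusted p = 0.0724). Saa2 was at 0.181, 1.07, 0.674 and 4.42 CPM in healthy HSCs, at 0.979, 0.347 and 9.48 CPM at acute 24 h and at 4.65, 9.61, 3.24 and 1.60 CPM at chronic 24 h. Neither Saa2 difference passed (1.17 and 1.55).

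At chronic 72 h both were higher. Saa1 was at 101, 158, 12.5 and 14.9 CPM and Saa2 at 19.998, 127, 4.98 and 5.72 CPM, all above the healthy libraries. The differences were 4.50 ± 1.05, 22.6-fold, for Saa1 (edgeR adjusted p = 0.00364) and 4.61 ± 1.30, 24.4-fold, for Saa2 (adjusted p = 0.0138). The high values belonged to replicates 1 and 2, the shallower libraries of that group. In the deeper libraries alone the differences were 2.15 for Saa1 and 1.77 for Saa2 (adjusted p = 0.178 and 0.409), and without chronic 72 h replicate 2 that of Saa2 was 2.69 (adjusted p = 0.118). The adjusted p over 20 alternatives ran from 1.53e-05 to 0.178 for Saa1 and from 0.00046 to 0.409 for Saa2.

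Saa1 at acute 7 d was at 60.9, 44.5, 4.35 and 8.51 CPM, and replicate 3 lay within the healthy range. Its difference of 3.23 ± 1.00 (edgeR adjusted p = 0.0216) was not called without acute 7 d replicate 1 (2.62, adjusted p = 0.0767) or without healthy replicate 1, 2 or 3 (0.0637, 0.0523 and 0.0629), within 0.00327 to 0.0767 over 19 alternatives. At chronic 14 d Saa1 was at 33.8, 64.2, 32.0 and 16.5 CPM, clear of the healthy libraries, with a difference of 3.54 ± 1.01 (adjusted p = 0.0309). That call was lost without chronic 14 d replicate 2 or healthy replicate 1, 2 or 3 (adjusted p = 0.0849, 0.0878, 0.0797 and 0.0896), and with depth class as a term the value was 0.83 (0.717, the highest of 19 alternatives, the lowest being 0.00207).

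Saa2 at acute 7 d was at 39.7, 22.2, 1.13 and 3.22 CPM, and at chronic 14 d at 9.86, 15.1, 13.7 and 2.64 CPM. The same acute 7 d libraries, replicates 1 and 2, were high for both Saa1 and Saa2. The Saa2 differences were 3.37 and 2.69 (edgeR adjusted p = 0.0516 and 0.185). At acute 72 h Saa1 was at 1.06, 7.01, 3.50 and 2.40 CPM and Saa2 at 0.709, 3.81, 4.06 and 0.542 CPM, within or near the healthy range. Over the 27 libraries the log2 levels of Saa1 and Saa2 had a Pearson correlation of 0.94, and of 0.92 about the group means, a description only, since both were counted in the same libraries. Their coding sequences are 95.1% identical, yet 4.67% of the 75-base windows of Saa1 and 4.55% of those of Saa2 occur in the other, so most reads could be assigned to one of them.

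The stretches before the start of Saa1 and Saa2 are shown for the likeness of the pair. Capitals mark the 12 bases in each that have no identical partner in the alignment. Saa1 is chr7:46742981-46743230, read on the minus strand, and Saa2 is chr7:46751583-46751832 on the plus strand (RefSeq, GRCm38.p6).
Saa1: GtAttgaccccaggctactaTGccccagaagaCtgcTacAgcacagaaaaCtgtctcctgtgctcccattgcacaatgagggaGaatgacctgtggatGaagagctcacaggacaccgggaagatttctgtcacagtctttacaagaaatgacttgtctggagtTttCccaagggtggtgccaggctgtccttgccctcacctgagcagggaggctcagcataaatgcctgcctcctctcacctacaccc
Saa2: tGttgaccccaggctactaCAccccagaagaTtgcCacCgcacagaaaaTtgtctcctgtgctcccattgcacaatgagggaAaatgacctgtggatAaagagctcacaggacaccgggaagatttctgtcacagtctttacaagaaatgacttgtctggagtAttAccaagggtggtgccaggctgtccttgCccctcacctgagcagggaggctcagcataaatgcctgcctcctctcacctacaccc
They were 94.8% identical (238 of 251 aligned positions), against 50.2% for Saa1 with Saa3. Both held 1 C/EBP type match, beginning at −182 in Saa1 and −183 in Saa2, in the run that reads the same in both.

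Hp encodes haptoglobin, the plasma protein that captures free haemoglobin, and lies at chr8:109575128-109579172 on the minus strand. It was the only member that edgeR called lower in a comparison with healthy HSCs. The healthy libraries were at 93.6, 124, 126 and 516 CPM and the acute 24 h libraries at 5.88, 17.0 and 57.1 CPM. The groups did not overlap, and Hp was lower by −3.01 ± 0.82, 8.07-fold (95% interval −4.62 to −1.40, edgeR adjusted p = 0.00642). Over 18 alternatives the adjusted p ran from 9.47e-05 to 0.0502, the last when only these 2 groups were fitted.

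At chronic 24 h Hp was instead at 817, 533, 131 and 195 CPM, a range that overlapped the healthy one (0.96, edgeR adjusted p = 0.304). The direct difference between chronic and acute 24 h was 3.97 ± 0.86, 15.7-fold (adjusted p = 0.00197). At acute 72 h Hp was at 184, 296, 297 and 139 CPM and at acute 7 d at 804, 514, 313 and 357 CPM. Hp rose between acute 24 h and acute 7 d by 4.22 ± 0.87, 18.6-fold (adjusted p = 0.000547). Chronic 72 h gave 960.3, 981, 395 and 754 CPM, and chronic 14 d gave 1116, 2055, 536 and 325 CPM. Both means were above the healthy one, and neither difference passed (1.84 and 2.23, adjusted p = 0.0652 and 0.0512).

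Hp moved with the hepatocyte genes. The 19 summed to 643, 993, 1211 and 4679.7 CPM in healthy libraries and to 33.3, 75.9 and 307 CPM at acute 24 h. There 16 of 19 were called lower, against 12.5% of all genes, with a median log2 fold change of −3.82. Healthy replicate 4, the highest for Hp, was also the highest for that sum. The log2 levels of Hp and of the sum had a Pearson correlation of 0.95 over the 27 libraries and 0.88 about the group means, again from the same libraries. As a share of the sum, a measure chosen after seeing the values, Hp was 10.4 to 14.6% in healthy HSCs, 17.6 to 22.4% at acute 24 h and 24.4 to 48.0% at chronic 24 h.

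Saa1 and Saa2 can be set beside the same sum. Saa1 was 0.139 to 0.334% of it in healthy libraries, 3.43 to 6.42% at acute 24 h and 0.600 to 1.84% at chronic 24 h. The acute 24 h shares of Saa1 lay above those of every group but chronic 72 h, which reached 3.88%. Saa2 was 0.0282 to 0.108% in healthy libraries and 0.458 to 3.08% at acute 24 h. Serpina3n and the hepatocyte sum had a Pearson correlation of −0.41 over the 27 libraries and of 0.40 about the group means, opposite in sign, and Serpina3n was highest in the acute 24 h libraries, where that sum was lowest. The part of hepatocyte RNA in the levels of Hp, Saa1 and Saa2 was not tested further.

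**Figure D5:**
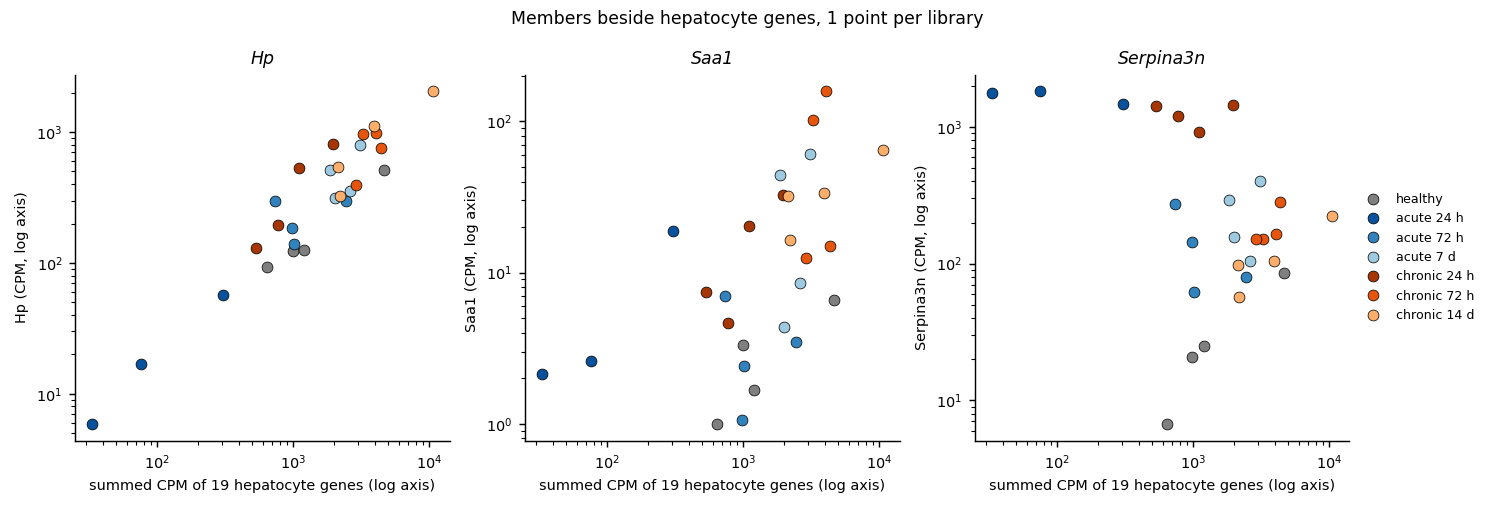
Level of Hp, Saa1 and Serpina3n (y axes, CPM, log scale) against the summed level of 19 hepatocyte genes (x axis, CPM, log scale) in the 27 libraries, coloured by group. Hp rises with the sum over its whole range, while Serpina3n is at 923 CPM or more in 7 libraries at low and middle sums.

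Orm1 encodes orosomucoid, a plasma glycoprotein that binds drugs and lipids (chr4:63344560-63348163, plus strand). It was at 0 in 17 of the 27 libraries. In healthy HSCs only replicate 4 had a value (8.06 CPM, 93 counts), and all 3 acute 24 h libraries were at 0. Acute 7 d was the one group in which every library had counts, at 28.3, 5.58, 3.54 and 1.53 CPM (350, 68, 44 and 20 counts). The rest was held by acute 72 h replicate 1 (1.95 CPM), chronic 24 h replicate 2 (8.37 CPM), chronic 14 d replicate 2 (29.7 CPM) and chronic 72 h replicates 3 and 4 (10.8 and 6.97 CPM). The edgeR test called Orm1 in 0 of the 9 comparisons, with 1 at an unadjusted p under 0.05 (acute 7 d against acute 24 h). DESeq2 called it lower at acute 24 h than in healthy HSCs and higher at acute 7 d and chronic 24 h than at acute 24 h. No fold is given because the zeros set it. The coding sequence is 89.9% identical to that of Orm2, which had 8 and 19 counts in 2 libraries, and 13.8% of Orm1 windows occur in Orm2.

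The order of the group means differed by member. Mt1, Mt2 and Serpina3n were highest at acute 24 h, Lcn2 and Saa3 at chronic 24 h, Saa1, Saa2 and Serpina3f at chronic 72 h and Hp at chronic 14 d. For Mt1 and Mt2 the acute 24 h libraries did not overlap those of the next group, and below that all neighbours in the order overlapped. For Serpina3n the order of acute 24 h, chronic 24 h and the rest held without overlap, the first step only narrowly (1467 against 1461 CPM). Scaled by library totals alone, the lowest acute 24 h value (1384 CPM) lay below the highest chronic 24 h value (1403 CPM). Lcn2 in healthy HSCs and Hp at acute 24 h were lowest without overlap, and Serpina3f at chronic 14 d lay above acute 24 h without overlap. All other neighbours in the order overlapped.

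Genes most like each member over the 27 libraries were taken by Pearson correlation of log2 CPM among 16082 genes, as a description, since all share the libraries and their groups. Hp was most like Fgb, Hpx and Fga (each 0.98), plasma proteins of the hepatocyte, and Saa1 was most like Fetub and Itih4 (0.81 each). Saa2 was most like Fgl1 (0.80). Serpina3n was most like Cyb561 and Cxcl14 (0.94 each) and Plaur (0.93). Lcn2 was most like Pla1a and Gprc5b (0.88 each), and Saa3 like S100a16 (0.87). Mt1 was most like Chic2 (0.92), Sod2 (0.91), the mitochondrial superoxide dismutase, and Ddit4 (0.89). Between members, the highest values were those of Saa1 with Saa2, of Lcn2 with Serpina3n (0.87, and 0.72 about the group means) and of Mt1 with Mt2 (0.81 and 0.59).

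Among other positive acute phase genes, more were called lower than higher at acute 24 h. Of 26 listed, 23 were tested, and 3 were called higher and 11 lower at acute 24 h, against 9.41% and 12.5% of all genes, with a median log2 fold change of −0.92. Hepatocyte genes were lower in the same libraries (16 of 19 called), and their part in this was not tested. The ones called higher included a pair of serpins from the Serpina3 cluster, Serpina3g (2.63, 127 against 20.5 CPM, edgeR adjusted p = 0.00028) and Serpina3i (2.70, adjusted p = 9.67e-06). At the 5 later or chronic times 4 to 9 of 23 were called higher than in healthy HSCs, where 4.55% to 11.2% of all genes were. Il1rn, the interleukin 1 receptor antagonist, was higher by 6.23 at chronic 24 h, 4.43 at chronic 72 h and 3.99 at chronic 14 d.

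Of 21 genes of the signalling that induces the acute phase, 7 were called higher at acute 24 h, against 9.41% of all genes. The list holds cytokines, receptors and downstream factors, including inhibitors of the signalling. Il11, a cytokine of the interleukin 6 family, was at 130.7 ± 2.19 CPM (SD, n = 3) at acute 24 h and 0.233 CPM in healthy HSCs (9.10, edgeR adjusted p = 9.13e-10). It was at 17.9 CPM at chronic 24 h, lower than at acute 24 h by −2.87 (adjusted p = 7.8e-05). Lif, of the same family, was at 28.3 CPM at acute 24 h against 1.18 CPM (4.57, adjusted p = 7.64e-05). Tnf was higher by 4.87 at chronic 24 h (adjusted p = 3.43e-05) and by 3.50 at acute 7 d, where Osm was higher by 5.21. Of 13 macrophage and monocyte genes, 9 were called higher at chronic 24 h and 11 at acute 7 d, against 11.2% and 9.23% of all genes. Their part in the Tnf and Osm levels was not tested.

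Of 17 genes of the metal response and of zinc or iron handling, 16 were tested, and 4 were called higher and 5 lower at acute 24 h, against 9.41% and 12.5% of all genes. Hmox1, which degrades haem, was higher at acute 24 h by 2.03, from 33.4 to 137 CPM (edgeR adjusted p = 3.2e-05), and at chronic 24 h by 2.08 (adjusted p = 1.4e-05). Slc39a14, a zinc and iron importer, was higher at chronic 24 h by 2.05 (76.5 against 18.5 CPM, adjusted p = 3.11e-06). Mt3 was among the 4, but it had counts at acute 24 h alone, as given above. It passed the filter on low counts through that group only, so its call there is no independent result.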

How the data were processed

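Raw read counts per gene, deposited by the authors for 27 libraries, were used as given. Per the study's methods, RNA was sequenced as single-end reads of 75 bases, trimmed, mapped to GRCm38.p6 with STAR and assembled with StringTie. Tool versions, the annotation and the strand setting of the counting are not given in the sources used here. Gene IDs were given symbols and positions from GENCODE M21 (53274 of 53379 IDs found). The ultraviolet sort and the overlap of Mt2 with Gm45774 could change what was counted.

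Counts were filtered (filterByExpr), scaled by TMM and tested in one model of 7 groups over all 27 libraries with edgeR 4.0.16 (R 4.3.3), after a check on simulated counts. DESeq2 1.42.0, the tool of the study, was an alternative. Exact permutation tests went through every split of the libraries of the groups compared, in Python 3.11.15. Each repeat is an individual experiment, per the study's methods. Genes of a group were named as the members, as up to 2 called genes with the highest and 2 with the lowest fold change of each list and comparison, and as the 3 genes most like each member. The members and lists were chosen with earlier results of these data known. Pairs of libraries of 1 group differed by more than sampling noise (chi-square per degree of freedom at least 15.5 over 39 pairs). Promoter stretches came from RefSeq. Alternatives were other scaling, filters, thresholds, a depth term, a replicate block and each library left out. The 95% intervals are normal approximations, with the SE worked out from the log2 fold change and the F value of edgeR's test. They can be somewhat too narrow with so few libraries.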

Additional observations from a re-analysis of the deposited data

Results flagged for a closer look

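In 10 of 60 sets of 4 libraries (10 genes in 6 groups), 1 library lay far from the other 3 by Dixon's criterion, applied to CPM. Normally distributed values would meet it in about 1 of 20 sets. That rate need not hold for CPM, with its zeros and uneven spread, so no excess is read from these 10 sets. Of these, 5 were Orm1, where the library that stood apart was the only one with a count or the highest, at 8.06 CPM in healthy replicate 4, 1.95 CPM in acute 72 h replicate 1, 28.3 CPM in acute 7 d replicate 1, 8.37 CPM in chronic 24 h replicate 2 and 29.7 CPM in chronic 14 d replicate 2. Hp in healthy replicate 4 was at 516 CPM, in the library with the highest sum of hepatocyte genes of its group. Saa2 in chronic 72 h replicate 2 was at 127 CPM, Saa3 in chronic 14 d replicate 2 at 27.8 CPM, Serpina3n in chronic 72 h replicate 4 at 282 CPM and Mt1 in acute 7 d replicate 1 at 289.7 CPM.

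Levels differed between injured groups for several genes, by the edgeR test of the difference itself. Against acute 24 h, chronic 24 h differed in Hp (3.97), Mt1 (−3.07) and Mt2 (−3.58). Acute 7 d differed from acute 24 h in Hp (4.22), Serpina3n (−2.82), Serpina3f (−1.87), Mt1 (−3.55) and Mt2 (−5.52). Chronic 14 d differed from chronic 24 h in Lcn2 (−2.99), Serpina3n (−3.37) and Mt2 (−2.74). All are log2 fold changes. The calls of Serpina3f and of Mt2 between chronic and acute 24 h were lost in 1 alternative or more. The Mt2 call at chronic 14 d was lost in most alternatives, as given above. Age (acute against chronic) and depth (chronic 14 d) were not separated from the groups. The first 2 of these comparisons share the 3 acute 24 h libraries.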

How the results depend on the processing

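Of 37 called differences of the 10 genes, 24 kept their call under every alternative run, 13 lost it at least once and 0 changed sign. Members called at acute 72 h went from 2 to 1 when only the 2 groups were fitted, and ranged from 1 to 3 with 1 library left out. Members called at chronic 72 h went from 6 to 3 in the deeper libraries alone, an alternative chosen after seeing the data. Members called at chronic 14 d went from 4 to 1, Saa3, with depth class as a term. The Mt1 to Mt2 ratio at chronic 14 d, 0.14 on the log2 scale, ranged from −0.69 to 0.96 with 1 library left out and was below 0 without healthy replicate 1 or 3 or chronic 14 d replicate 1 or 3 (−0.57, −0.41, −0.45 and −0.69). Whether replicate numbers pair the libraries was not settled. Same-number correlations ran from −0.17 to 0.19 (median 0.01), and different-number ones from −0.33 to 0.32 (median −0.003). Values above 0.1 were found in 15 of 78 same-number pairs and 16 of 234 different-number pairs. Of 27 libraries, 8 were most like one of their own number. With a replicate block, 6, 2, 3, 4, 5 and 3 members were called at acute 24 h, 72 h and 7 d and chronic 24 h, 72 h and 14 d. When libraries were scaled by their totals without TMM, the median log2 difference over the genes tested moved by 0.10 at acute 72 h and 7 d, 0.12 at chronic 72 h and 0.17 at chronic 14 d. Depth, vehicle and age were not separated from the groups, and genes with few counts, such as Orm1 and healthy Lcn2, Saa3 and Mt2, have imprecise fold changes.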

Other observations

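Genes of the glucocorticoid response were followed because glucocorticoids are a classical inducer of metallothionein and acute phase genes. Of 11, all tested, 4 were called higher and 1 lower at acute 24 h, against 9.41% and 12.5% of all genes. Fkbp5, a chaperone and a standard glucocorticoid target, was at 321 CPM at acute 24 h against 52.0 CPM in healthy HSCs (2.63, edgeR adjusted p = 3.82e-07) and at 153 CPM at chronic 24 h (1.56, adjusted p = 8.5e-05). Ddit4, an inhibitor of growth signalling, was at 185 CPM at acute 24 h against 33.1 CPM (2.48, adjusted p = 5.84e-07) and was lower at chronic than at acute 24 h by −2.46 (adjusted p = 1.35e-06). Zbtb16, a transcription factor, fell from 137 CPM at acute 24 h to 12.0 CPM at acute 7 d (−3.52, adjusted p = 0.00104). Nr3c1, the glucocorticoid receptor itself, was lower at acute 24 h by −1.78 (adjusted p = 3.44e-06) and at chronic 24 h by −1.62 (adjusted p = 2.57e-06).

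Receptors and partners of the members were tested as well. Of 10 listed, 9 were tested. Mmp9, a protease that forms a complex with lipocalin 2, had no count in the healthy libraries. Its means were 0.855 CPM at acute 24 h, 6.51 CPM at chronic 24 h and 5.12 CPM at chronic 14 d. Mmp9 was called higher at all 6 injured times. It passed the filter on low counts through injured groups only, so these calls are no independent result. Fpr2, a receptor that binds serum amyloid A, was higher at chronic 24 h by 2.84 (2.04 against 0.269 CPM, edgeR adjusted p = 0.00965). Neutrophil genes were called higher at the same 6 times (4 to 7 of 8 tested, against 4.55% to 11.2% of all genes). The limit of the filter given above for these genes holds here too. Macrophage and monocyte genes were called higher at chronic 24 h (9 of 13, against 11.2% of all genes). The part of both in the Mmp9 and Fpr2 levels was not tested. Lrp1, a receptor that clears protease and inhibitor complexes, was lower at acute 7 d by −1.20 (adjusted p = 0.015) and at chronic 14 d by −1.11 (adjusted p = 0.049).

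Negative acute phase genes, whose products fall in plasma during an acute phase, were called lower at acute 24 h in 7 of 8, against 12.5% of all genes. Trf, transferrin, was at 20.7 CPM against 346 CPM (−4.06, edgeR adjusted p = 0.00112). Most of these genes are also hepatocyte genes, and the summed level of hepatocyte genes was lower in the same libraries. Their part in the result was not tested.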
